A study of Homo sapiens with 12 samples.

Results

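Genes that YAP and TAZ are known to switch on were followed in the gastric cancer lines MKN1 and AGS, with and without cantharidin sodium. They were CCN1, CCN2, F3, CRIM1, ANKRD1, DLC1, LATS2, AMOTL1, AMOTL2 and AJUBA, chosen by name as the 10 rows of the count matrix whose Ensembl identifiers map to these symbols, out of 32269 rows. The list was set with earlier results of these data known, so it is not independent of them. All 10 genes passed the filter on low counts, as did 20280 of all rows. Cantharidin sodium is a salt of cantharidin, a blister beetle toxin known as an inhibitor of the serine/threonine phosphatases PP2A and PP1. The 4 groups were treated MKN1, untreated MKN1, treated AGS and untreated AGS cells, each with 3 libraries that the design text calls biological replicates. Both lines are labelled wild type and as gastric adenocarcinoma epithelial cells, and all groups grew in RPMI-1640 with fetal bovine serum. The sources used here give no dose, duration or vehicle.

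YAP and its paralogue TAZ are coactivators at the end of the Hippo pathway. In this pathway the kinases MST1 and MST2 activate LATS1 and LATS2, which phosphorylate YAP and TAZ so that they stay in the cytoplasm or are degraded. Unphosphorylated YAP and TAZ enter the nucleus and bind TEAD transcription factors, which recognise the motif GGAATG and often sit near AP-1 sites. Their best known target genes encode secreted matrix-associated proteins (CCN1, CCN2) and the stress-responsive nuclear protein ANKRD1, and in many tumours, gastric cancer among them, their levels are read as the output of YAP and TAZ. Some targets are themselves brakes or modulators of the pathway, such as LATS2 and the angiomotin-like proteins AMOTL1 and AMOTL2. PP2A is known to remove phosphates from members of the pathway.

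The TEAD motif GGAATG and the AP-1 motif TGANTCA were searched on both strands in the 250 bases before each start in RefSeq's GRCh38.p14 promoters. Promoters of 7 of the 10 genes were used (9 promoters, with 2 each for AMOTL2 and AJUBA). CCN1 and CRIM1 had no entry among these promoters, and DLC1 was left out of the search. No match of one motif overlapped a match of the other. Of 35116 promoters of this length, 11.9% held the TEAD motif and 6.57% the AP-1 motif. The CCN2 promoter held 3 TEAD matches, the ANKRD1 promoter 2 TEAD matches and 1 AP-1 match, and the F3 promoter 2 AP-1 matches and no TEAD match. One of the 2 promoters of AMOTL2 and of AJUBA held 1 TEAD match each. The promoters of LATS2 and AMOTL1 held neither motif in these windows. Parts of the windows of CCN2, ANKRD1, F3 and AMOTL2 are printed here because the results below turn on these genes and each holds a match. The match of AJUBA is not printed, and AJUBA was not called in either line. A link between the motifs and the response to treatment was not tested. They run 5′ to 3′ on the gene's own strand, which is the minus strand for all 4, with matches in capitals. A match is a description of letters, not a measured binding site. The CCN2 stretch is chr6:131951374-131951622, those of ANKRD1 are chr10:90921277-90921337 and chr10:90921198-90921227, that of F3 is chr1:94541801-94542009 and that of AMOTL2 is chr3:134374499-134374528. The starts are those of RefSeq, and the near ANKRD1 stretch and the AMOTL2 stretch lie within exons of the GENCODE annotation.
CCN2: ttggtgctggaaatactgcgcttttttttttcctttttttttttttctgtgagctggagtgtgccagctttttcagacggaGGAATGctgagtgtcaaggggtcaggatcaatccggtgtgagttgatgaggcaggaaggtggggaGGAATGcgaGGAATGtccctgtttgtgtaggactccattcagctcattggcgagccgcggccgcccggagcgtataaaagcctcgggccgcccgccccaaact
ANKRD1, far stretch: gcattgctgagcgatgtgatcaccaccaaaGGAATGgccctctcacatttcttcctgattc
ANKRD1, near stretch: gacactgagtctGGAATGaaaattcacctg
F3: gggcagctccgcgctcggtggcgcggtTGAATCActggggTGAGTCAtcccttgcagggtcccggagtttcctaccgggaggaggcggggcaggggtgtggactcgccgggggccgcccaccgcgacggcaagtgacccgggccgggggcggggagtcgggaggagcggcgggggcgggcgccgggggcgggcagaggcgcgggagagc
AMOTL2: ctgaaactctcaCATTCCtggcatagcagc
The capitals in the AMOTL2 stretch are the TEAD motif on the opposite strand. The AP-1 match of ANKRD1 begins at the end of its far stretch and runs on beyond it, so it is in small letters there.

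Libraries held 28604966 to 51604215 counts, and a count of 3, taken as the floor of detection, equalled 0.0581 to 0.105 CPM (counts scaled to a common library total). Epithelial markers (EPCAM, CDH1, KRT8, KRT18 and KRT19) were present in all groups, with summed levels of 4887 to 6620.2 CPM in treated MKN1, 5344 to 6564 CPM in untreated MKN1, 3911 to 4465 CPM in treated AGS and 4226 to 5295 CPM in untreated AGS. KRT8, KRT18 and KRT19 had higher means in MKN1 than in AGS in both states, and EPCAM and CDH1 lower ones. EPCAM and CDH1 averaged 21.0 and 8.11 CPM in treated MKN1 against 439 and 21.7 CPM in treated AGS. In untreated cells they averaged 21.8 and 9.30 CPM in MKN1 against 429 and 20.8 CPM in AGS. The squamous markers TP63, KRT5 and KRT14 summed to 679.9 to 1247 CPM in MKN1 libraries and to 0.256 to 0.513 CPM in AGS libraries. The fibroblast markers COL1A2, DCN, LUM and PDGFRB summed to 48.8 to 90.0 CPM in treated and 83.9 to 134 CPM in untreated MKN1, with 2 of the 4 above a mean of 1 CPM, and to at most 3.41 CPM in AGS. Of these 4, LUM averaged 104 CPM and DCN 7.54 CPM in untreated MKN1, against 0.138 CPM for COL1A2 and 0.486 CPM for PDGFRB. The part of these markers in the results on MKN1 was not tested. Endothelial and blood markers summed to at most 2.44 and 8.39 CPM. MKN1 untreated replicate 3 stood apart: its log2 CPM correlated at 0.9702 and 0.9722 with the other untreated MKN1 libraries, which correlated at 0.9853 with each other. Among treated MKN1 libraries the correlations were 0.9815 for replicates 1 and 2, and 0.979 and 0.9771 for replicate 3 with them. Results in MKN1 are also given without untreated replicate 3, which had the lowest correlations. Treated replicate 3 was kept there, although its deviations from its group mean correlated at 0.176 with those of untreated replicate 3. These are bulk samples, in which fewer cells with a transcript and less of it per cell cannot be told apart.

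Levels below are CPM scaled by TMM factors, given for replicates 1, 2 and 3 in turn, and fold changes are log2 values of edgeR's quasi-likelihood fit over all 12 libraries with their standard error (SE). Benjamini-Hochberg adjustment ran over the 20280 genes tested, and an adjusted p below 0.05 called a gene higher or lower.

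The calls among these genes were all decreases in MKN1 and all increases in AGS. In MKN1, 0 of the 10 were higher and 5 were lower in treated cells (ANKRD1, CCN1, F3, DLC1 and AMOTL2), where 3.90% of all tested genes were lower and 2.80% higher. In AGS, 5 were higher (CCN2, ANKRD1, CRIM1, F3 and DLC1) and 0 lower, where 9.21% of all tested genes were higher and 11.6% lower. The median log2 fold change of the 10 was −0.60 in MKN1 and 0.59 in AGS, and that of all tested genes 0.01 in MKN1 and −0.01 in AGS. At an unadjusted p below 0.05 there were 8 of the 10 in MKN1 and 6 in AGS. Here and below, the share of all tested genes at that unadjusted threshold was not counted, so these numbers have no background. ANKRD1, F3 and DLC1 were called in both lines, lower in treated MKN1 and higher in treated AGS, a combination shown by 163 of all tested genes (0.804%). Of the 10 fold changes, 2 were above 0 in MKN1 and all 10 in AGS. Without MKN1 untreated replicate 3 the numbers were 1 higher and 6 lower in MKN1, and 6 higher and 0 lower in AGS. In that fit 15.1% of all tested genes were called in MKN1 and 26.4% in AGS, against 6.70% and 20.8% with all libraries. With MKN1 fitted alone, 0 of the 10 were called and 0.184% of all tested genes.

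**Figure D1:**
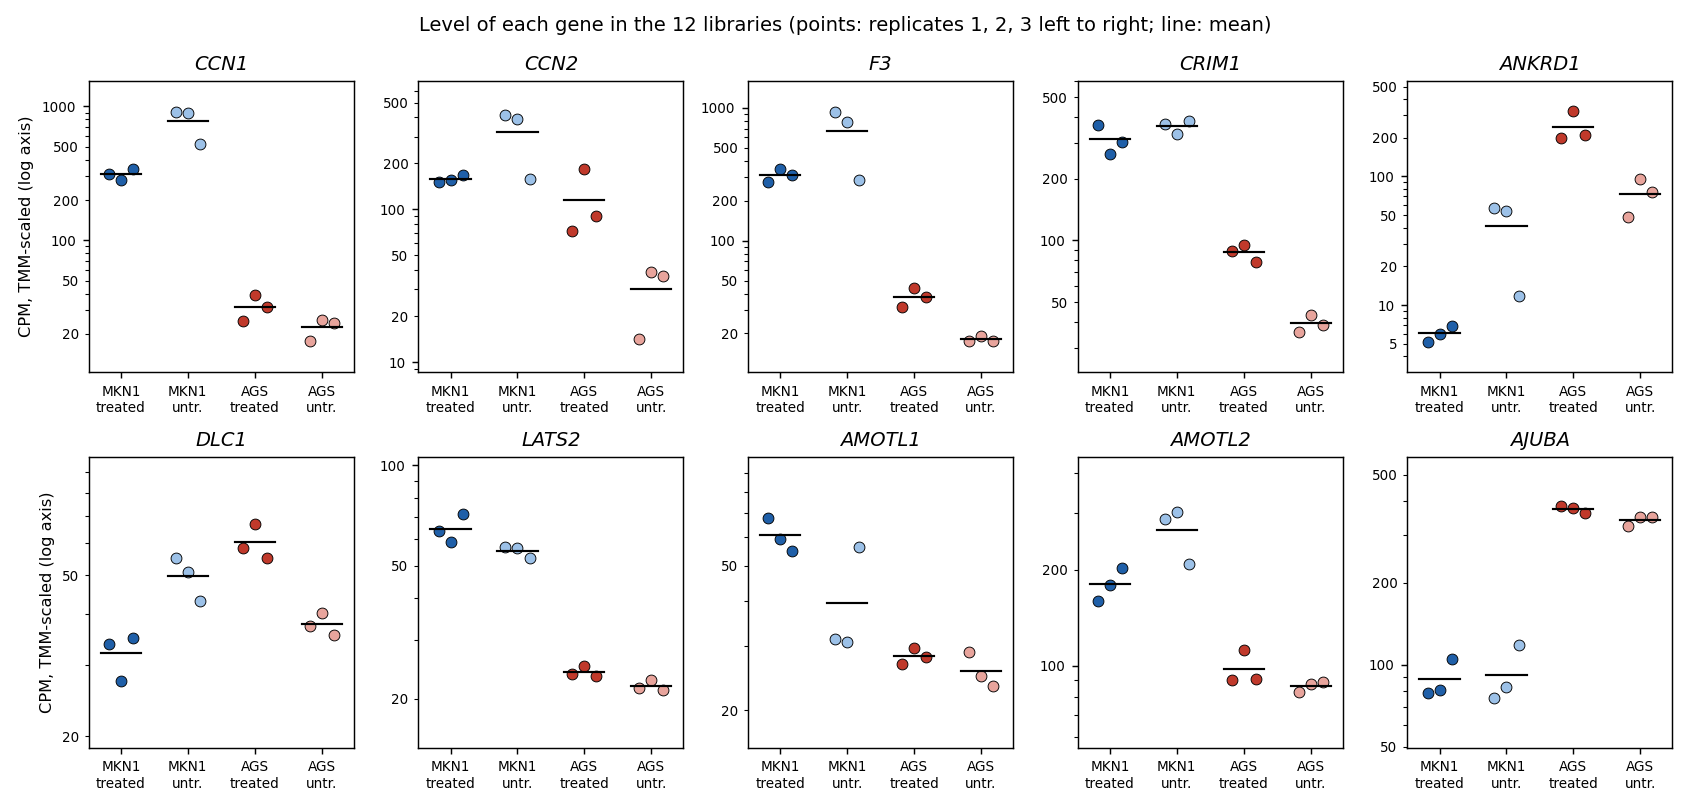
Level of each of the 10 genes in CPM (log axis) in the 12 libraries, with points for replicates 1 to 3 and a line at the mean of each group. In MKN1 the untreated point of replicate 3 of CCN2, F3 and AMOTL1 lies among the treated points, and ANKRD1 has its highest levels in treated AGS cells and its lowest in treated MKN1 cells.

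The secreted and cell-surface members came first. CCN1 (ENSG00000142871, GRCh38 chromosome 1, 85580761 to 85583962), also known as CYR61, encodes a matrix-associated protein that binds integrins. It had 313, 282 and 341 CPM in treated MKN1 cells, against 909, 897 and 527 CPM in untreated MKN1 cells. All treated libraries lay below all untreated ones, as they did for 11.4% of tested genes. The log2 fold change was −1.32 (SE 0.22, edgeR adjusted p = 0.00588), the 128th largest of 791 decreases in MKN1. In AGS, CCN1 had 25.1, 38.9 and 31.6 CPM in treated cells, against 17.7, 25.2 and 24.2 CPM in untreated cells. The lowest treated library lay just under the highest untreated one, and the log2 fold change of 0.51 (SE 0.22) did not pass the threshold (edgeR adjusted p = 0.113), with a 95% interval of 0.04 to 0.98. It passed when MKN1 untreated replicate 3 was left out (adjusted p = 0.0375).

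CCN2 (ENSG00000118523, chromosome 6, 131948176 to 131951373), known also as CTGF, encodes a secreted matricellular protein and is the target most often used as a readout of YAP. In treated MKN1 cells it had 150.3, 155 and 167 CPM, against 418, 388 and 159 CPM in untreated MKN1 cells. Untreated replicate 3 lay inside the treated range, while untreated replicates 1 and 2 were above all treated libraries. The log2 fold change of −1.03 (SE 0.42) did not pass the threshold (edgeR adjusted p = 0.163), and without untreated replicate 3 it was −1.36 (adjusted p = 0.0353). In AGS, CCN2 was higher, with 71.8, 185 and 90.1 CPM in treated cells, against 14.3, 38.8 and 36.8 CPM in untreated cells. The groups did not overlap, although treated replicate 2 and untreated replicate 1 lay away from the others of their groups. Its log2 fold change of 1.95 (SE 0.44, edgeR adjusted p = 0.00888) was the largest of the 10 genes in AGS and the 127th largest of 1867 increases there. CCN2 shares 8.34% of its exon bases with a gene on the opposite strand, and because the library kit does not mark strand, reads there cannot be told apart. The same holds for 4.94% of the exon bases of AMOTL1 and 2.49% of those of CRIM1.

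F3 (ENSG00000117525, chromosome 1, 94529225 to 94541800) encodes tissue factor, the membrane receptor that starts blood coagulation. In treated MKN1 cells it had 277, 346 and 310.4 CPM, against 934, 779.8 and 287 CPM in untreated MKN1 cells. The groups overlapped because untreated replicate 3 lay within the treated range. F3 was lower, with a log2 fold change of −1.10 (SE 0.30, edgeR adjusted p = 0.0487). This call was lost when any 1 library other than MKN1 untreated replicate 3 was left out (adjusted p of 0.064 to 0.165), and without that replicate it was −1.47 (adjusted p = 0.000141). In AGS, F3 had 31.8, 43.8 and 37.8 CPM in treated cells, against 17.7, 19.3 and 17.5 CPM in untreated cells. These groups did not overlap and the log2 fold change was 1.06 (SE 0.31, edgeR adjusted p = 0.0303). The adjusted p was 0.087, 0.0686 or 0.098 without AGS untreated replicate 1, 2 or 3, and 0.102 or 0.0712 without AGS treated replicate 2 or 3.

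CRIM1 (ENSG00000150938, chromosome 2, 36355926 to 36551135) encodes a transmembrane protein that binds bone morphogenetic proteins. It had 366, 264 and 304 CPM in treated MKN1 cells, against 372, 331 and 381 CPM in untreated MKN1 cells. These groups overlapped, and the log2 fold change of −0.22 (95% interval −0.50 to 0.07) did not pass the threshold (edgeR adjusted p = 0.35). In AGS it had 88.7, 95.0 and 78.9 CPM in treated cells, against 35.9, 43.5 and 38.7 CPM in untreated cells. The treated libraries were all well above the untreated ones. The log2 fold change was 1.15 (SE 0.13, edgeR adjusted p = 0.000295), the smallest adjusted p of the 10 genes in AGS.

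ANKRD1 and DLC1 act inside the cell. ANKRD1 (ENSG00000148677, chromosome 10, 90912096 to 90921276) encodes an ankyrin repeat protein of the nucleus and of the contractile apparatus in muscle. It had 5.19, 5.97 and 6.89 CPM in treated MKN1 cells, against 56.8, 54.2 and 11.8 CPM in untreated MKN1 cells. All treated libraries lay below all untreated ones, with untreated replicate 3 the nearest to them. The log2 fold change of −2.76 (SE 0.47, edgeR adjusted p = 0.00707) was the 8th largest of 791 decreases in MKN1, and without untreated replicate 3 it was −3.20 (adjusted p = 8.14e-05). In AGS it had 200.4, 321 and 209 CPM in treated cells, against 48.8, 95.5 and 75.4 CPM in untreated cells. The groups did not overlap, and the log2 fold change was 1.73 (SE 0.44, edgeR adjusted p = 0.0152). The call was lost when AGS untreated replicate 1 or 3 (adjusted p = 0.0648 or 0.0567) or AGS treated replicate 2 (0.0624) was left out.

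DLC1 (ENSG00000164741, chromosome 8, 13083361 to 13604610) encodes a GTPase-activating protein that turns off RhoA. It had 33.8, 27.4 and 34.9 CPM in treated MKN1 cells, against 55.3, 51.0 and 43.3 CPM in untreated MKN1 cells. The groups did not overlap, and the log2 fold change was −0.64 (SE 0.13, edgeR adjusted p = 0.0156). The adjusted p was 0.0571 without MKN1 untreated replicate 2 and 0.0516 without MKN1 treated replicate 2. In AGS, DLC1 had 58.4, 67.1 and 55.3 CPM in treated cells, against 37.5, 40.3 and 35.6 CPM in untreated cells. All treated libraries were above all untreated ones, with a log2 fold change of 0.67 (SE 0.13, edgeR adjusted p = 0.00428).

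The other 4 members act within or upon the Hippo pathway. In AGS none of the 4 was called by edgeR, with log2 fold changes between 0.14 and 0.18, although the treated and untreated libraries of 3 of them did not overlap, as was so upwards for 25.6% of tested genes. None of the 4 reached an unadjusted p below 0.05 in AGS. In MKN1 the angiomotin-like pair had fold changes of opposite sign.

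AMOTL2 (ENSG00000114019, chromosome 3, 134355874 to 134375479) encodes an angiomotin-like scaffold protein that binds YAP and holds it at junctions. It had 159, 179 and 202 CPM in treated MKN1 cells, against 287, 302 and 208 CPM in untreated MKN1 cells. All treated libraries lay below all untreated ones, though untreated replicate 3 exceeded treated replicate 3 by little. The log2 fold change was −0.56 (SE 0.15, edgeR adjusted p = 0.0408), and the call was lost without any 1 of 9 libraries (AGS untreated 1, 2 and 3, AGS treated 1 and 3, MKN1 untreated 1 and 2, MKN1 treated 1 and 2), with adjusted p of 0.0579 to 0.152. AGS cells had 90.4, 112 and 91.0 CPM when treated, against 82.8, 87.9 and 88.9 CPM when untreated, a log2 fold change of 0.18 (95% interval −0.14 to 0.50, edgeR adjusted p = 0.416).

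AMOTL1 (ENSG00000166025, chromosome 11, 94706431 to 94876753), its paralogue, had 67.7, 59.2 and 55.1 CPM in treated MKN1 cells, against 31.4, 30.8 and 56.3 CPM in untreated MKN1 cells. Untreated replicate 3 lay within the treated range. The log2 fold change of 0.62 (SE 0.20) did not pass the threshold (edgeR adjusted p = 0.0817), and without untreated replicate 3 it was 0.96 (adjusted p = 0.000841). Levels in AGS were 26.9, 29.8 and 28.0 CPM in treated cells, against 28.9, 24.9 and 23.3 CPM in untreated cells. These groups overlapped, with a log2 fold change of 0.14 (95% interval −0.29 to 0.57). Within each MKN1 library the ratio of AMOTL1 to AMOTL2 counts was 0.425, 0.331 and 0.273 in treated cells, against 0.109, 0.102 and 0.27 in untreated cells. The ratios of treated and untreated replicate 3 were nearly equal, so the groups were barely apart. In AGS this ratio was 0.266 to 0.308 in treated cells and 0.262 to 0.349 in untreated cells. These ratios compare counts, not levels per length, and were chosen after the values were seen.

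LATS2 (ENSG00000150457, chromosome 13, 20973032 to 21061547) encodes one of the kinases that phosphorylate YAP and TAZ. It had 63.7, 59.0 and 71.4 CPM in treated MKN1 cells, against 56.9, 56.5 and 52.7 CPM in untreated MKN1 cells, a log2 fold change of 0.22 (95% interval 0.01 to 0.44, edgeR adjusted p = 0.196). AGS libraries had 23.7, 25.1 and 23.4 CPM in treated cells, against 21.5, 22.7 and 21.2 CPM in untreated cells, a log2 fold change of 0.14 (95% interval −0.08 to 0.36). In both lines all treated libraries lay above all untreated ones, as in MKN1 for 9.95% of tested genes, but neither difference passed the threshold. AJUBA (ENSG00000129474, chromosome 14, 22971174 to 22982642) encodes a LIM domain protein that restrains the LATS kinases. It had 79.2, 81.2 and 105 CPM in treated MKN1 cells, against 75.4, 82.7 and 118 CPM in untreated MKN1 cells, and the groups overlapped. Its log2 fold change was −0.06 in MKN1 (95% interval −0.40 to 0.29) and its sign changed without any 1 of 3 MKN1 libraries and with library totals alone. The AGS levels were 383, 378 and 361 CPM in treated cells, against 323, 348 and 349 CPM in untreated cells, a log2 fold change of 0.14 (95% interval −0.20 to 0.48).

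**Figure D2:**
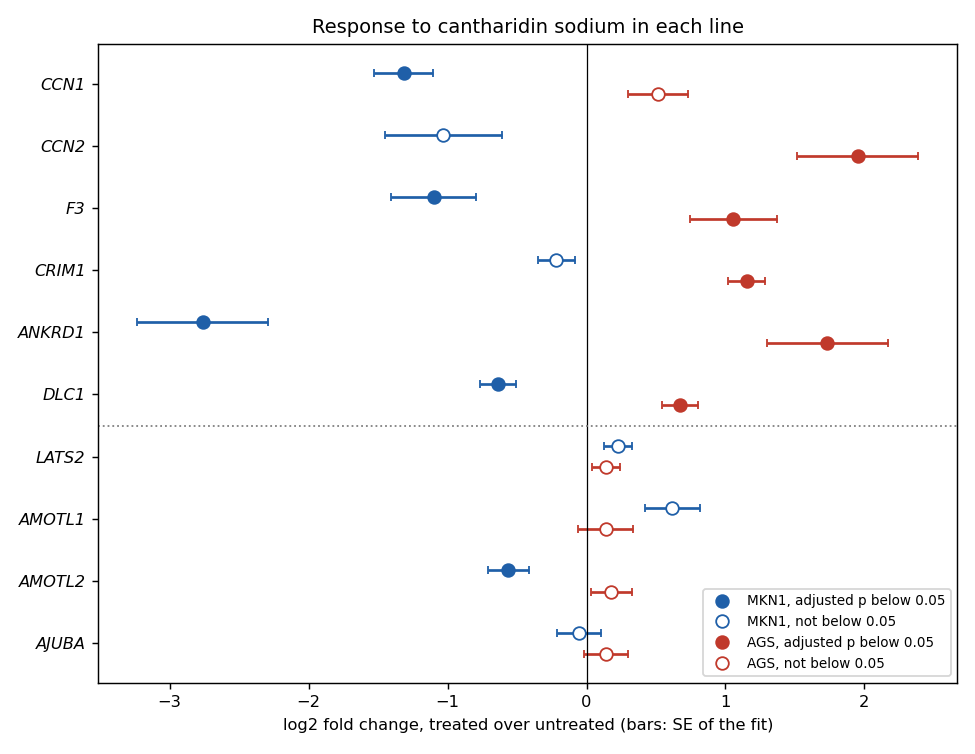
Log2 fold change, treated over untreated, of each gene in MKN1 (blue) and AGS (red), with bars for the SE of the edgeR fit and filled points for an adjusted p below 0.05. Above the dotted line the 6 target genes outside the pathway have all AGS points right of 0 and all MKN1 points left of it. The 4 pathway members below the line lie between −0.56 and 0.62. The split was made after the values were seen.

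The difference between the treatment effects, MKN1 minus AGS, was tested in the same fit. It was called lower for 7 of the 10 genes and higher for 0, where 7.30% of all tested genes were called lower and 8.38% higher. The 7 were ANKRD1 with −4.50 (SE 0.64, edgeR adjusted p = 0.000985), CCN2 with −2.98 (SE 0.61), F3 with −2.16 (SE 0.43), CCN1 with −1.83 (SE 0.31), CRIM1 with −1.37 (SE 0.19), DLC1 with −1.31 (SE 0.18) and AMOTL2 with −0.74 (SE 0.21). These included CCN1, called in MKN1 but not in AGS, and CRIM1 and CCN2, called in AGS but not in MKN1. All 6 of the target genes outside the pathway were among them, and 1 of the 4 pathway members, a split made after the values were seen. ANKRD1 ranked 34th in size of 1480 genes called lower in this comparison. The AMOTL2 difference (edgeR adjusted p = 0.0302) was lost without any 1 of 7 libraries (AGS untreated 1, 2 and 3, AGS treated 2, MKN1 untreated 1 and 2, MKN1 treated 1), with adjusted p of 0.0552 to 0.0816. AMOTL1 had a difference of 0.48 (95% interval −0.13 to 1.09), LATS2 of 0.08 (−0.23 to 0.39) and AJUBA of −0.19 (−0.68 to 0.29). Without MKN1 untreated replicate 3, AMOTL1 was called higher in this comparison, with 0.83 (adjusted p = 0.00493).

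The lines also differed before treatment. In untreated cells 8 of the 10 genes were higher in MKN1 than in AGS, AJUBA was lower and ANKRD1 was not called, where 66.3% of all tested genes were called in either direction (34.9% higher and 31.4% lower). The largest gaps were those of F3, with 667 ± 338 CPM in untreated MKN1 and 18.2 ± 0.984 CPM in untreated AGS cells (SD, n = 3 each; log2 fold change 5.20, edgeR adjusted p = 3.96e-08), and of CCN1, with 778 ± 218 CPM in untreated MKN1 and 22.4 ± 4.04 CPM in untreated AGS cells (log2 fold change 5.12, edgeR adjusted p = 1.57e-09). AJUBA averaged 92.0 ± 22.8 CPM in untreated MKN1 and 339.7 ± 14.8 CPM in untreated AGS cells (log2 fold change −1.88, SE 0.16, edgeR adjusted p = 3.37e-07). The smallest called gap was that of DLC1, at 0.40 (SE 0.13, edgeR adjusted p = 0.0153), which was lost without AGS untreated replicate 3 (adjusted p = 0.0612) or MKN1 untreated replicate 1 (0.065). That of AMOTL1, at 0.62, was lost without AGS untreated replicate 3 (adjusted p = 0.0574) or MKN1 untreated replicate 3, where it was 0.28 (0.0651). ANKRD1 averaged 41.0 ± 25.3 CPM in untreated MKN1 and 73.3 ± 23.4 CPM in untreated AGS cells, with overlapping groups and a log2 fold change of −0.84 (95% interval −1.77 to 0.09).

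In treated cells the gaps between the lines differed by gene. There 6 of the 10 genes were higher in MKN1 and 3 were lower, where 68.1% of all tested genes were called in either direction (36.8% higher and 31.4% lower). These comparisons use the same libraries as the treatment effects and add no independent evidence to them. CCN2 averaged 158 ± 8.69 CPM in treated MKN1 and 116 ± 60.9 CPM in treated AGS cells, with overlapping groups and a log2 fold change of 0.45 (95% interval −0.46 to 1.35), while in untreated cells it was 3.43 (SE 0.46, edgeR adjusted p = 2.19e-05). DLC1 was lower in treated MKN1 than in treated AGS cells, with 32.0 ± 4.06 CPM and 60.3 ± 6.14 CPM (log2 fold change −0.91, SE 0.13, edgeR adjusted p = 3.66e-05). ANKRD1 averaged 6.02 ± 0.852 CPM in treated MKN1 and 244 ± 67.6 CPM in treated AGS cells, a log2 fold change of −5.34 (SE 0.52, edgeR adjusted p = 9.66e-07), and this 40.5-fold range of group means was the widest of the 10 genes. LATS2 and AJUBA had log2 fold changes of 1.43 and −2.08 in treated cells and 1.34 and −1.88 in untreated cells.

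**Figure D3:**
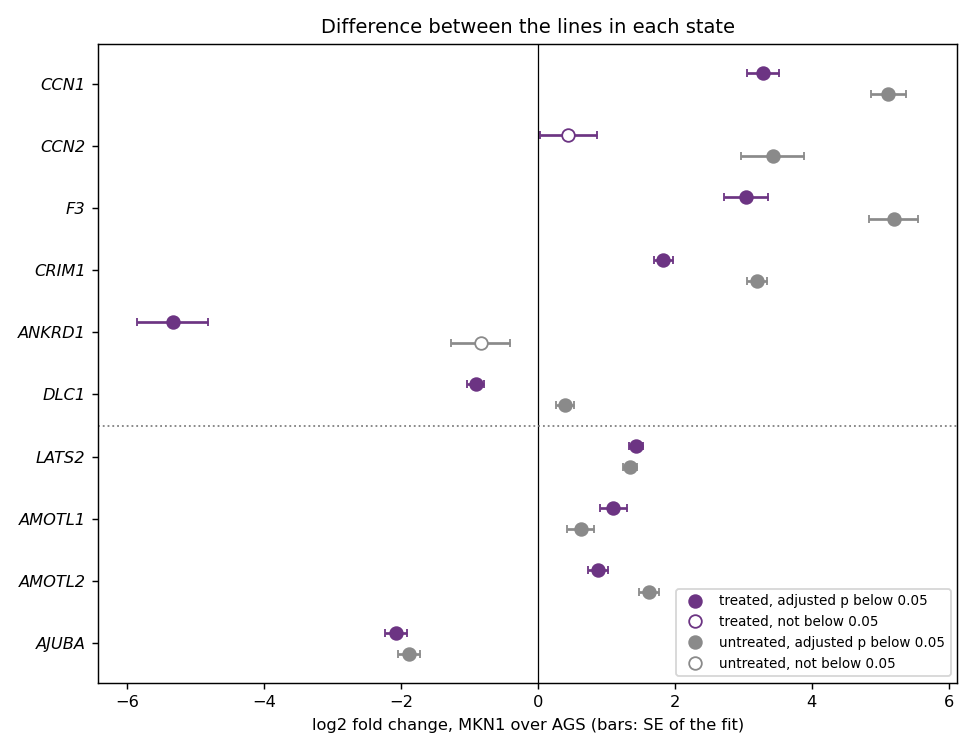
Log2 fold change, MKN1 over AGS, of each gene in treated (purple) and untreated (grey) cells, with bars for the SE of the edgeR fit and filled points for an adjusted p below 0.05. The treated point lies left of the untreated point for all genes except LATS2 and AMOTL1, by the least for AJUBA, and that of CCN2 is near 0.

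The order of the groups by level differed between genes. The group means of CCN1, F3, CRIM1, CCN2 and AMOTL2 ran from untreated MKN1 through treated MKN1 and treated AGS down to untreated AGS. For CCN1 the libraries of treated and untreated AGS overlapped. For F3 and CRIM1 those of treated and untreated MKN1 overlapped. For CCN2 neither untreated and treated MKN1 nor treated MKN1 and treated AGS were apart, and for AMOTL2 all neighbours were apart. AMOTL1 and LATS2 ran from treated MKN1 through untreated MKN1 and treated AGS to untreated AGS, with no overlap between neighbours for LATS2 and overlap between the treated and untreated libraries of each line for AMOTL1. ANKRD1 and AJUBA ran from treated AGS through untreated AGS and untreated MKN1 to treated MKN1, where untreated AGS and untreated MKN1 overlapped for ANKRD1 and the MKN1 groups overlapped for AJUBA. Gaps between the lines were usual among all tested genes. Counting either direction, MKN1 and AGS were fully apart for 71.4% of genes when untreated and 74.0% when treated. Treatment set the groups fully apart for 52.4% of genes in AGS and 21.4% in MKN1. Shares for untreated MKN1 against treated AGS, and for all neighbours jointly, were not counted. DLC1 had the narrowest span, 1.88-fold between treated AGS and treated MKN1. Per kilobase of exon, the highest of the 10 genes was CCN1 in treated and untreated MKN1 (127 ± 12.0 and 317 ± 88.6 CPM per kilobase), ANKRD1 in treated AGS (123 ± 34.2 CPM per kilobase) and AJUBA in untreated AGS (56.8 ± 2.48 CPM per kilobase). AMOTL1 was the lowest in both AGS groups and DLC1 the lowest in treated MKN1 on this scale. In untreated MKN1, DLC1 and AMOTL1 were nearly equal (3.90 ± 0.478 and 3.94 ± 1.45 CPM per kilobase). The exon length merges all annotated exons of a gene, whether or not these cells use them.

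Replicates differed in a pattern that several of these genes shared. AGS treated replicate 2 was the highest of its group for 9 of the 10 genes, which it was for 37.6% of all tested genes, and AGS treated replicate 1 was the lowest for 6 (39.4% of all tested genes). AGS untreated replicate 2 was the highest for 7 of the 10 (29.5%), AGS untreated replicate 1 the lowest for 6 (29.2%), MKN1 treated replicate 3 the highest for 7 (36.3%) and MKN1 untreated replicate 1 the highest for 6 (32.9%). Untreated MKN1 replicate 3 was the lowest of its group for 7 of the 10, which it was for 40.8% of all tested genes. Untreated MKN1 replicates 1 and 2 lay on 1 side of all treated libraries for 8 of the 10 genes and for 42.9% of all tested genes. For 3 of these 8 (CCN2, F3 and AMOTL1) replicate 3 lay within or beyond the treated range, as it did for 50.2% of the 8709 genes of this kind among all tested. Without this library, 6 of the 10 genes were lower in treated MKN1 cells (with CCN2 added) and AMOTL1 was higher, while 15.1% of all tested genes were called in MKN1. Fitted without the AGS libraries, MKN1 gave 0 calls among the 10 genes by edgeR, 7 at an unadjusted p below 0.05, and 34 calls among 18484 genes (0.184%). Fitted without the MKN1 libraries, AGS gave 6 calls among the 10 genes and 8368 calls among 17345 genes (48.2%). In the fit of MKN1 alone the adjusted p was 0.0522 for CCN1 and 0.0567 for ANKRD1, and the log2 fold changes of the 10 moved by at most 0.0062.

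**Figure D4:**
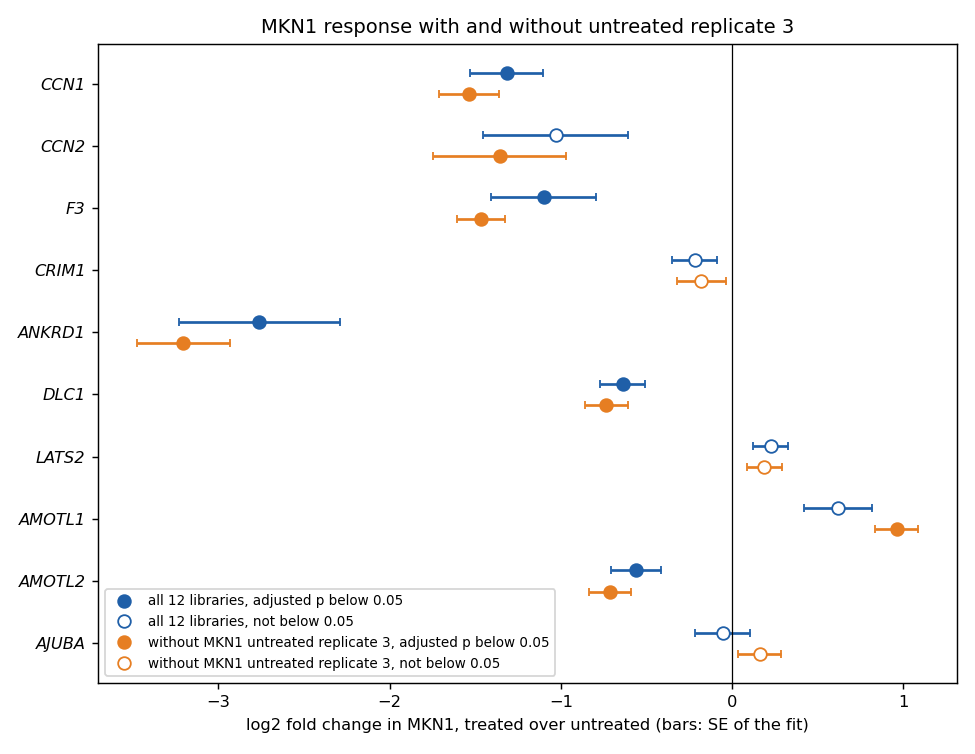
Log2 fold change in MKN1, treated over untreated, from all 12 libraries (blue) and without MKN1 untreated replicate 3 (orange), with bars for the SE of the edgeR fit and filled points for an adjusted p below 0.05. CCN2 and AMOTL1 become filled without that library, ANKRD1 moves to −3.20, and AJUBA crosses 0.

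A second list of 15 genes known as targets of YAP and TAZ in other cells was counted, of which 14 were analysed. In MKN1, 0 of the 14 were called by edgeR, where 2.80% of all tested genes were higher and 3.90% lower, with 5 at an unadjusted p below 0.05 and a median log2 fold change of −0.03. In AGS, 3 were higher and 1 lower, with a median of 0.18, where 9.21% of all tested genes were higher and 11.6% lower. The difference between the treatment effects, MKN1 minus AGS, was called lower for 2 of the 14 and higher for 0. Of all tested genes 7.30% were called lower and 8.38% higher in that comparison. MYOF, which encodes a membrane repair protein of the ferlin family, averaged 706 CPM in treated and 493 CPM in untreated AGS cells, with a log2 fold change of 0.52 (SE 0.13, edgeR adjusted p = 0.0132). DOCK5, an activator of the GTPase Rac, averaged 238 CPM in treated and 146 CPM in untreated AGS cells (log2 fold change 0.71, SE 0.12, edgeR adjusted p = 0.00218). IGFBP3, a secreted binding protein of insulin-like growth factors, had 114 counts in all treated and 7 in all untreated AGS libraries, with levels of 1.09 ± 0.486 CPM in treated and 0.0618 ± 0.0643 CPM in untreated AGS cells, the untreated level being near the floor. It was called higher in treated AGS cells (edgeR adjusted p = 0.000513), and its fitted log2 fold change of 4.16 depends on the prior count. It had 3175 ± 152 CPM in treated and 4315 ± 607 CPM in untreated MKN1 cells. NUAK2, a stress-activated kinase of the AMPK family, was lower in AGS (log2 fold change −0.64, SE 0.17, edgeR adjusted p = 0.0212). The MYOF and NUAK2 calls were lost without AGS untreated replicate 1 or 3 or AGS treated replicate 2, and that of NUAK2 also without AGS treated replicate 1 (adjusted p of 0.0569 to 0.0895). FOXF2, NT5E, TGFB2 and RBMS3 were below 1 CPM in every AGS library.

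Of 15 Hippo pathway genes, 2 were higher and 0 lower in treated MKN1 cells, where 2.80% of all tested genes were higher and 3.90% lower. In treated AGS cells 4 were higher and 3 lower, where 9.21% of all tested genes were higher and 11.6% lower. Of the genes named here, VGLL4 shares 23.7% of its exon bases with genes on the opposite strand, SAV1 14.9%, TEAD2 10.7% and YAP1 9.97%, and reads there cannot be told apart. YAP1 itself averaged 426 ± 39.4 CPM in treated and 314 ± 42.2 CPM in untreated MKN1 cells (log2 fold change 0.44, SE 0.12, edgeR adjusted p = 0.0452), and 365 ± 22.4 CPM in treated and 261 ± 17.8 CPM in untreated AGS cells (log2 fold change 0.48, SE 0.12, edgeR adjusted p = 0.0142). The MKN1 call was lost in 15 of 22 alternatives, among them the removal of any 1 library other than MKN1 untreated replicate 3 or MKN1 treated replicate 3, that in AGS in 3 (without AGS untreated replicate 1 or 3 or AGS treated replicate 2, adjusted p of 0.0558 to 0.0691), and the difference between the lines was −0.04 (95% interval −0.40 to 0.32). VGLL4, which competes with YAP for TEAD proteins, averaged 73.0 ± 21.2 CPM in treated and 37.1 ± 5.11 CPM in untreated MKN1 cells (log2 fold change 0.97, SE 0.17, edgeR adjusted p = 0.00795), and 61.4 ± 2.20 CPM in treated and 90.2 ± 5.38 CPM in untreated AGS cells (log2 fold change −0.55, SE 0.17, edgeR adjusted p = 0.0347). The difference between these effects was 1.53 (SE 0.24, edgeR adjusted p = 0.00167). The AGS call of VGLL4 was lost in 8 of 22 alternatives (without any 1 AGS library or MKN1 untreated replicate 2, and without a filter) and its MKN1 call in 2, among them the fit without MKN1 untreated replicate 2 (adjusted p = 0.0571). TEAD1, a transcription factor through which YAP and TAZ bind DNA, had a log2 fold change of 0.61 in AGS (SE 0.12, edgeR adjusted p = 0.00486) and 0.00 in MKN1 (95% interval −0.26 to 0.26). The scaffold gene SAV1 and the kinase gene STK4 were also higher in AGS, while TEAD2 and the tumour suppressor gene NF2 were lower there. SAV1 was called under every alternative. The STK4 call was lost in 8 of 22, which included leaving out any 1 AGS library. That of NF2 was lost in 5 (any 1 AGS library but untreated replicate 2) and that of TEAD2 in 3 (AGS untreated replicate 3, AGS treated replicate 3, and GC content and length trends removed). With these trends removed the AGS log2 fold changes were smaller in size for TEAD1 (0.39), TEAD2 (−0.32) and STK4 (0.28).

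**Figure D5:**
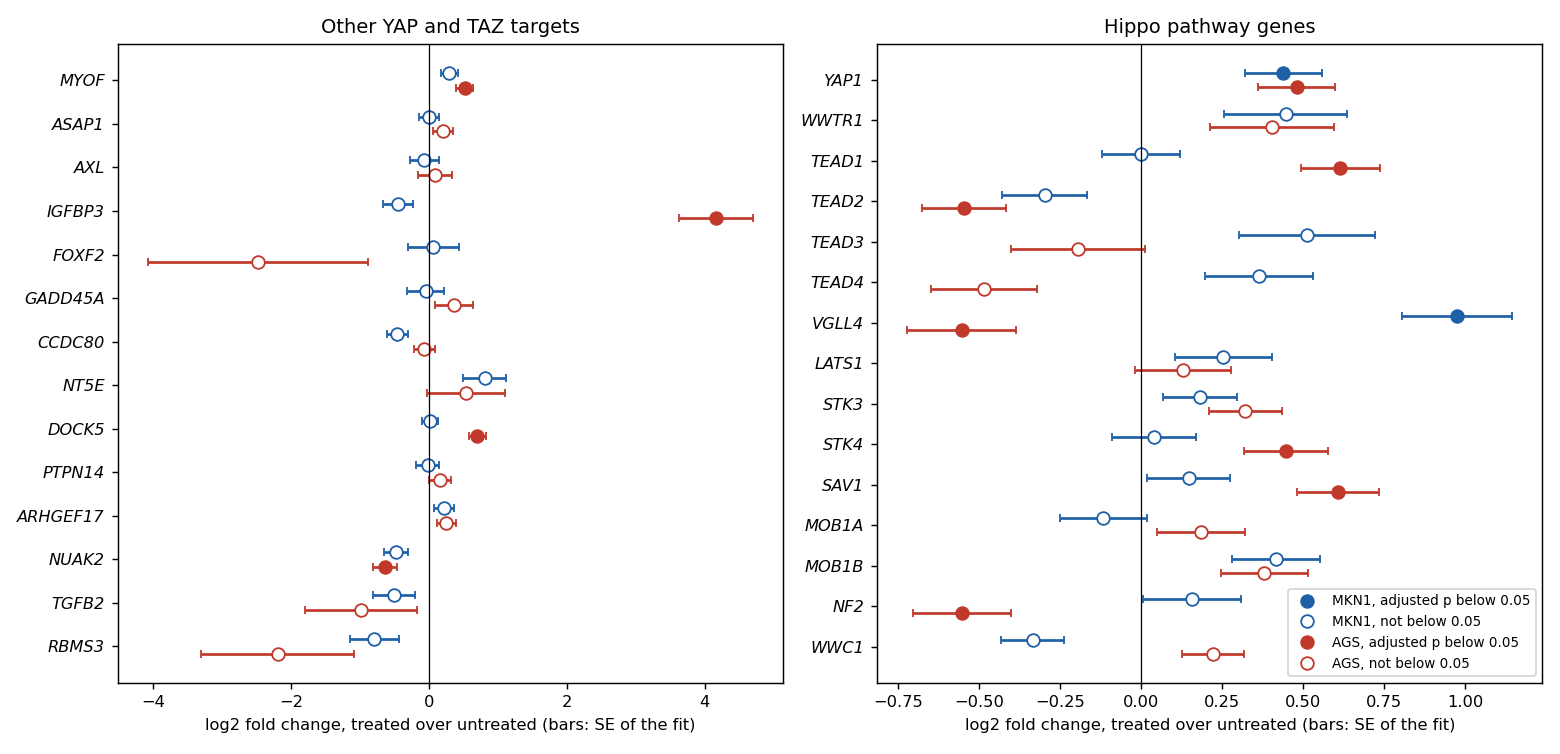
Log2 fold change, treated over untreated, in MKN1 (blue) and AGS (red) of 14 other target genes (left) and 15 Hippo pathway genes (right, on a narrower axis), with bars for the SE of the edgeR fit and filled points for an adjusted p below 0.05. No MKN1 point is filled on the left, and on the right VGLL4 is filled on opposite sides of 0 in the 2 lines.

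The genes whose levels ran most like CCN2 were ranked by Pearson's r of log2 CPM over the 12 libraries after centring on the mean of each line, among genes of at least 5 CPM on average. These values share libraries and depth and are a description. Centring on the line leaves the treatment difference in, so r also carries the treatment effects given above and adds no independent evidence to them. The first 5 outside the 10 genes were SMAD3 (r = 0.931), VTI1A (0.911), TBC1D2 (0.909), ALS2CL (0.905) and CRYBG1 (0.905). SMAD3, a signal transducer of TGF-beta, had 168, 175 and 175 CPM in treated MKN1 cells, against 237, 229 and 188 CPM in untreated MKN1 cells. In AGS it had 54.4, 61.6 and 60.7 CPM in treated cells, against 42.4, 47.3 and 48.0 CPM in untreated cells. Its groups did not overlap in either line, as was so downwards for 11.4% of tested genes in MKN1 and upwards for 25.6% in AGS. The log2 fold changes were −0.33 in MKN1 (edgeR adjusted p = 0.0865) and 0.36 in AGS (edgeR adjusted p = 0.0344). The ranking picks genes that respond like CCN2, so these values of SMAD3 are no separate evidence. On the same measure F3 had r = 0.862, ANKRD1 0.862, DLC1 0.840, CRIM1 0.793, CCN1 0.778 and AMOTL2 0.710, whereas LATS2 had 0.250, AJUBA 0.040 and AMOTL1 −0.384.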

How the data were processed

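RNA from 2 cell lines in 4 groups of 3 libraries was sequenced. Per the labels' protocols, RNA was taken with TRIzol and made into libraries with a NEBNext Ultra kit, which does not mark strand. HISAT2 2.0.4 and the build hg38/GRCh38 are named in the submitters' processing notes. No counting tool, strand setting or annotation is given in the sources used here. The authors deposited raw counts for each gene, without normalization. Gene names were matched by Ensembl identifier, and positions and exons are those of GENCODE release 29.

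All counts were fitted together with edgeR 4.0.16 in R 4.3.3, after filterByExpr over the 4 groups (20280 of 32269 rows) and TMM scaling, with 1 coefficient per group, 8 residual degrees of freedom and a prior count of 0.125. SEs are the log2 fold change divided by the root of the F statistic, and 95% intervals use them. The script was tested on simulated data. Named genes were the 10 members whatever their values, those of 2 further lists that were called or near 0, and the 5 genes most like CCN2. Members and lists were chosen with earlier results of these data known. The group order, library ranks, ratios and the split into target and pathway genes were added after values were seen.

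Alternatives were other scalings, no filter, a filter of 5 CPM in 3 libraries, DESeq2 1.42.0, limma 3.58.1 (voom), a block for the replicate number, lines fitted separately, GC and length trends removed, and each library left out. For the GC and length trends, the form of the fit (robust, from genes of at least 1 CPM in the line, centred on the median) was settled after its first output had been seen and an error in it corrected. Deviations of same-numbered libraries from their group means correlated at −0.044 to 0.176. The highest value was that of replicate 3 of untreated and treated MKN1. Such correlations over all genes cannot show whether the numbers pair libraries, so the replicate block is given as an alternative only. Floors cover counting error only, because PCR copies cannot be told from separate molecules here.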

Additional observations from a re-analysis of the deposited data

Results flagged for a closer look

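The treatment effects of 7 of the 10 genes differed between the lines by a test of the difference itself, MKN1 minus AGS on the log2 scale, in edgeR's fit over all libraries. The values were −1.83 for CCN1 (adjusted p = 0.0023), −2.98 for CCN2 (0.00623), −4.50 for ANKRD1 (0.000985), −1.37 for CRIM1 (0.000766), −1.31 for DLC1 (0.000887), −0.74 for AMOTL2 (0.0302) and −2.16 for F3 (0.00606). Without MKN1 untreated replicate 3, which stands apart from its group, the 7 values ran from −0.89 for AMOTL2 to −4.94 for ANKRD1. Groups of 3 libraries were too small for a test of single outlying libraries.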

How the results depend on the processing

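Of the 10 genes, 5 were lower in treated MKN1 cells, and this number was 0 with each line fitted alone (7 at an unadjusted p below 0.05), 3 with library totals alone, 3 without the filter on low counts, and 2 to 6 with 1 library left out. It was 2 without MKN1 untreated replicate 2 or MKN1 treated replicate 2, and 3 without any 1 of AGS untreated replicates 1, 2 and 3, AGS treated replicates 1 and 3, MKN1 untreated replicate 1 and MKN1 treated replicate 1. The share of all tested genes called in MKN1, 6.70% in the reported fit, moved as well, to 0.184% with the line fitted alone, 6.4% with library totals alone, 2.51% without the filter, 2.99% without treated replicate 2, 1.6% without untreated replicate 2, and 3.62% to 5.59% in the other fits with 3. The number higher in treated MKN1 was 1 (AMOTL1) by DESeq2's Wald test and by limma voom, and 0 to 1 with 1 library left out. The number higher in treated AGS was 3 to 6 with 1 library left out, with 3 without AGS untreated replicate 1, AGS untreated replicate 3 or AGS treated replicate 2, where 12.1%, 9.85% and 10.4% of all tested genes were called, against 20.8% with all libraries. For the difference of the effects, the number higher was 0 to 1 with 1 library left out. In untreated cells 2 genes were lower in MKN1 by limma voom, where ANKRD1 was added to AJUBA.

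AJUBA changed sign in MKN1, to 0.012 with library totals alone and within −0.20 to 0.16 with 1 library left out (0.16 without untreated replicate 3, 0.017 and 0.0011 without treated replicates 1 and 2), and its difference between the lines lay within −0.34 to 0.025. The cause of these changes was not tested. With the replicate block F3 in MKN1 was −1.04 (adjusted p = 0.0639), and no other call among the 10 genes changed in the treatment comparisons. Of 12 libraries, 4 deviated most like the library of their own number in the other treatment state. F3 lost its call in 16 of 22 alternatives in MKN1 and 6 in AGS, and AMOTL2 in 12 in MKN1.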
